A study of Mus musculus with 12 samples.

Results

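The genes described here are 10 targets of the nuclear receptor PPARalpha that act outside beta-oxidation. They are the pantetheinase Vnn1, the fatty acid omega-hydroxylases Cyp4a10, Cyp4a14, Cyp4a31, and Cyp4a32, the acyl-CoA thioesterases Acot1 and Acot3, the pyruvate dehydrogenase kinase Pdk4, the fatty acid binding protein Fabp1, and the fatty acid translocase Cd36. They were taken by name from a table of 22456 mouse genes, as a list set with earlier results of these data known. All 10 were in the table, and all 10 averaged 0.5 RPKM or more, the minimum that 11507 of the 22456 genes reached. RPKM scales the read count of a gene for the length of its transcripts and for the mapped reads of the library, so that levels can be compared between genes. Mean levels over all libraries spanned 3.66 RPKM for Acot3 to 5539 RPKM for Fabp1.

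PPARalpha is a receptor for fatty acids and their derivatives that is abundant in hepatocytes. It binds DNA as a dimer with RXRalpha, at direct repeats of a short hexamer, and it recruits coactivators such as PGC-1alpha. During fasting, fatty acids released by adipose tissue reach the liver, and PPARalpha switches on genes for their uptake, binding, and oxidation. Lipin 1, the protein that is lost in these mice, dephosphorylates phosphatidic acid on the way to triglyceride and also acts in the nucleus as a coactivator of PPARalpha together with PGC-1alpha.

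Liver RNA came from 12 male BALB/cByJ mice, with 3 mice in each of 4 groups. Fatty liver dystrophy (fld) mice, written Lpin1-/-, carry a spontaneous mutation that removes lipin 1 from every tissue from birth, and wild-type littermates are written Lpin1+/+. Both genotypes were either fasted for 16 hours, each mouse in a cage of its own (fasted), or fasted in the same way and then given food for 5 hours (refed). All mice were 2 to 8 months old, all had been fasted, and none was sampled in the fed state without a preceding fast. Fasted and refed livers were taken at different times of day, so feeding and time of day cannot be told apart. In whole liver, fewer cells of a type and less RNA per cell cannot be told apart either. Lpin1 itself was at 22.0, 0.726, and 1.76 RPKM in fasted Lpin1+/+ liver and 2.92, 0.784, and 2.76 RPKM in refed Lpin1+/+ liver. It was at 0.00573 to 0.0597 RPKM in all 6 Lpin1-/- libraries, below every Lpin1+/+ library (log2 fold change −2.19 in fasted liver, SE 0.72, limma adjusted p = 0.0562). This value moved to −4.42 with a pseudocount of 0.1, to −1.05 without fasted Lpin1+/+ replicate 1, and to −2.92 without replicate 2 of that group (limma adjusted p = 0.00797, 0.0450, and 0.0154), and it passed in 5 of 18 alternatives.

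Of the members, 6 share stretches of sequence with other genes that are as long as a read (69 bases), which bears on how their reads can be assigned. Coding sequences of Cyp4a10, Cyp4a31, and Cyp4a32 are 96.0% to 97.2% identical, while Cyp4a14 is 74.8% to 75.1% identical to each of them. Their first 69 coding bases are shown because they show how little separates these genes, with bases that differ from Cyp4a10 in capitals (GENCODE M21 transcripts).
Cyp4a10: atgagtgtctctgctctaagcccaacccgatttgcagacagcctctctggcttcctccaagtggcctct
Cyp4a31: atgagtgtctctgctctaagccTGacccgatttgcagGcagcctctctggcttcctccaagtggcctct
Cyp4a32: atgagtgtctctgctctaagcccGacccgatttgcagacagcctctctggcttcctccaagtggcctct
Cyp4a14: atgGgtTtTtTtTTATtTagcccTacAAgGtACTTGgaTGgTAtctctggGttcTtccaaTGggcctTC
Cyp4a31 differs here at 3 bases, Cyp4a32 at 1, and Cyp4a14 at 28. Over whole transcripts, the share of 69-base windows also found in another gene was 33.8% for Cyp4a32, 21.4% for Cyp4a10, 15.6% for Cyp4a31, 27.9% for Acot1 (mostly Acot2), 17.0% for Acot3, and 0.79% for Pdk4. It was 0 for Vnn1, Cyp4a14, Fabp1, and Cd36. Values of Cyp4a10, Cyp4a31, Cyp4a32, Acot1, and Acot3 are therefore less certain than those of the other members.

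Mapped reads per library, estimated from the steps between low RPKM values, numbered about 93700000 to 125200000, an estimate whose common scale is less certain than the order of the libraries. The fewest reads behind any member value were about 77 (Cyp4a31 in fasted Lpin1-/- replicate 1). How far depth or the spread between libraries limits the comparisons was not tested. Fasted Lpin1-/- replicate 1 and refed Lpin1+/+ replicate 2 stood apart. Their mean correlations with the other libraries of their groups were the lowest of all 12 (0.949 and 0.933), and they had 17173 and 17252 genes above 0 RPKM against 15754 to 16472 in the other 10 libraries. The 6 cholangiocyte markers summed to 452 RPKM in the former and 103 RPKM in the latter (19.2 to 57.0 in the others), mostly from Spp1, and the 8 macrophage markers to 260 and 329 RPKM (37.5 to 170 in the others). The 8 hepatocyte markers, none of them at 0 in any library, summed to 59891 and 33100 RPKM, where the 12 libraries ranged from 33100 to 76492. The 8 stellate cell markers summed to 66.4 to 156 RPKM in fasted Lpin1+/+ and 196 to 286 RPKM in fasted Lpin1-/- liver, without overlap. This sum was mostly Dcn, at 140, 61.8, and 144 RPKM in fasted Lpin1+/+ and 264, 179, and 240 RPKM in fasted Lpin1-/- liver. Means of Des, Col1a1, Col3a1, and Pdgfrb were also higher in fasted Lpin1-/- liver, and those of Lrat, Reln, and Ngfr were lower. The part of other cell types in the member values was not tested. For several fitted results that moved when 1 or both of these libraries were left out, the value without them is given too. Correlations between genes were not recomputed without them.

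The pantetheinase Vnn1 was nearly lost from Lpin1-/- liver in both feeding states. Vnn1 (chromosome 10 of GRCm38, 23894688 to 23905343) cleaves pantetheine into pantothenate, the precursor of coenzyme A, and cysteamine. In fasted liver its level was 8.54, 22.1, and 45.3 RPKM in Lpin1+/+ and 0.495, 0.728, and 0.780 RPKM in Lpin1-/-. In refed liver it was 39.7, 11.1, and 32.2 RPKM in Lpin1+/+ and 0.316, 0.703, and 1.19 RPKM in Lpin1-/-. No Lpin1-/- library reached the lowest Lpin1+/+ library, and the means differed 37.9-fold in fasted and 37.5-fold in refed liver. On the log2(RPKM + 1) scale used for all fits, Lpin1-/- minus Lpin1+/+ liver gave a log2 fold change of −3.70 (SE 0.54, limma adjusted p = 0.00138) in fasted liver and −3.90 (SE 0.54, limma adjusted p = 0.00267) in refed liver. Since several values lie near 1 RPKM, this scale understates the difference. The call held in both states in all alternatives. Feeding moved Vnn1 by less than the spread between mice in either genotype (log2 fold change 0.23 in Lpin1+/+ and 0.03 in Lpin1-/-, SE 0.54 for both).

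**Figure D1:**
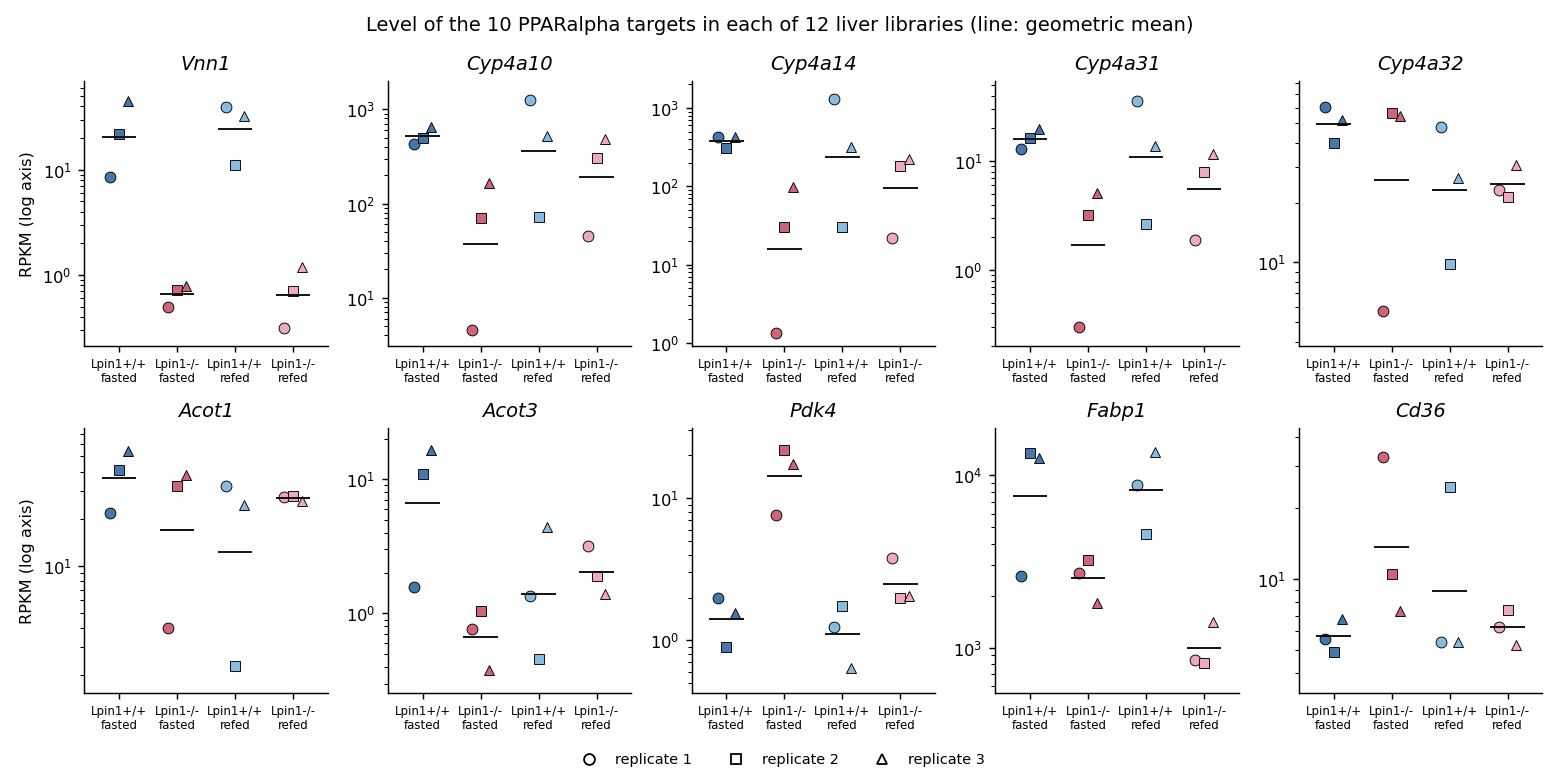
RPKM of each member on a log axis (1 panel per gene) in the 3 libraries of each of the 4 groups. Symbols mark the replicate and the line is the geometric mean of the group. Vnn1 lies below 1.2 RPKM in all 6 Lpin1-/- libraries and above 8.5 RPKM in all 6 Lpin1+/+ libraries, Pdk4 stands highest in fasted Lpin1-/- liver, and the Cyp4a genes spread widely within groups.

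The omega-hydroxylases of the Cyp4a family add a hydroxyl group to the end of the fatty acid chain, the first step toward dicarboxylic acids. All 4 lie in a cluster on chromosome 4 of GRCm38, with Cyp4a14 on the minus strand (115486200 to 115496142) and Cyp4a10 (115518264 to 115533649), Cyp4a31 (115563649 to 115579015), and Cyp4a32 (115600969 to 115621602) on the plus strand. Cyp4a10 was at 426, 491, and 650.0 RPKM in fasted Lpin1+/+ liver and at 4.60, 70.3, and 164 RPKM in fasted Lpin1-/- liver. Refed levels were 1252, 71.4, and 522 RPKM in Lpin1+/+ and 45.8, 307, and 483 RPKM in Lpin1-/-. The genotypes did not overlap in fasted liver and overlapped in refed liver, there through Lpin1+/+ replicate 2 alone.

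Cyp4a14 was at 430, 306, and 428 RPKM in fasted Lpin1+/+, at 1.36, 30.0, and 99.2 RPKM in fasted Lpin1-/-, at 1305, 30.6, and 319 RPKM in refed Lpin1+/+, and at 22.0, 182, and 222 RPKM in refed Lpin1-/- liver. It overlapped between genotypes only in refed liver, again through Lpin1+/+ replicate 2. Cyp4a31, a weakly expressed relative, was at 13.0, 16.2, and 19.7 RPKM in fasted Lpin1+/+ and 0.299, 3.23, and 5.12 RPKM in fasted Lpin1-/- liver, again without overlap. In refed liver Cyp4a31 was at 35.8, 2.62, and 13.9 RPKM in Lpin1+/+ and 1.88, 7.93, and 11.7 RPKM in Lpin1-/-, with the same library as the only overlap. Cyp4a32 behaved differently in fasted liver, with 60.4, 39.8, and 51.7 RPKM in Lpin1+/+ and 5.69, 56.4, and 54.5 RPKM in Lpin1-/-. Only fasted Lpin1-/- replicate 1 lay below the Lpin1+/+ libraries there.

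None of the 4 Cyp4a genes passed the threshold between genotypes in fasted liver, although 3 of them had non-overlapping groups and large differences of the means. The log2 fold change was −3.67 (SE 1.29, limma adjusted p = 0.0690) for Cyp4a10, −4.31 (SE 1.47, limma adjusted p = 0.0624) for Cyp4a14, −2.40 (SE 0.81, limma adjusted p = 0.0610) for Cyp4a31, and −0.88 (SE 0.74, limma adjusted p = 0.441) for Cyp4a32. Mean levels were 6.56-fold, 8.91-fold, 5.66-fold, and 1.30-fold higher in Lpin1+/+. These values depended on which libraries were included. Without refed Lpin1+/+ replicate 2, which enters through the shared estimate of the spread, Cyp4a10, Cyp4a14, and Cyp4a31 passed the threshold with the same log2 fold changes (adjusted p = 0.0411, 0.0308, and 0.0233 with limma). Without fasted Lpin1-/- replicate 1 the log2 fold changes were −2.25, −2.78, and −1.75 (adjusted p = 0.240, 0.218, and 0.209 with limma), and that of Cyp4a32 was 0.15. Without both they did not pass (adjusted p = 0.102, 0.0739, and 0.0701 with limma). The first 2 also passed without fasted Lpin1-/- replicate 3 (adjusted p = 0.0409 and 0.0354 with limma), and Cyp4a31 passed without refed Lpin1+/+ replicate 1 (adjusted p = 0.0424) and with only the 6 fasted libraries (0.0299, both with limma).

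In refed liver the genotype differences of the 4 Cyp4a genes were within the spread, with log2 fold changes of −1.27 to 0.08 and SEs of 0.74 to 1.47. Without refed Lpin1+/+ replicate 2 they were −2.08 for Cyp4a10, −2.72 for Cyp4a14, and −1.76 for Cyp4a31 (SE 1.25, 1.36, and 0.71, limma adjusted p = 0.429, 0.321, and 0.208). That of Cyp4a32 moved from 0.08 to −0.51. The feeding differences were as uncertain. In Lpin1-/- liver the log2 fold change of refed over fasted was 2.24 for Cyp4a10 (SE 1.29, limma adjusted p = 0.235) and 2.33 for Cyp4a14 (SE 1.47, limma adjusted p = 0.275). Without fasted Lpin1-/- replicate 1 these were 0.82 and 0.81. For Cyp4a32 the feeding difference in Lpin1-/- moved from −0.10 to −1.13 without that library (limma adjusted p = 0.163), and it passed without both libraries that stand apart (0.0286). Cyp4a10, Cyp4a14, and Cyp4a31 varied together across libraries, with Pearson correlations of 0.98 to 0.99 over the 12 libraries and 0.97 to 0.99 for the deviations from the group means, while Cyp4a32 correlated with them at 0.68 to 0.71 over the 12 libraries and at 0.80 to 0.87 within groups. These correlations describe libraries that share groups and, for Cyp4a10, Cyp4a31, and Cyp4a32, reads of near-identical sequence. They include both libraries that stand apart.

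**Figure D2:**
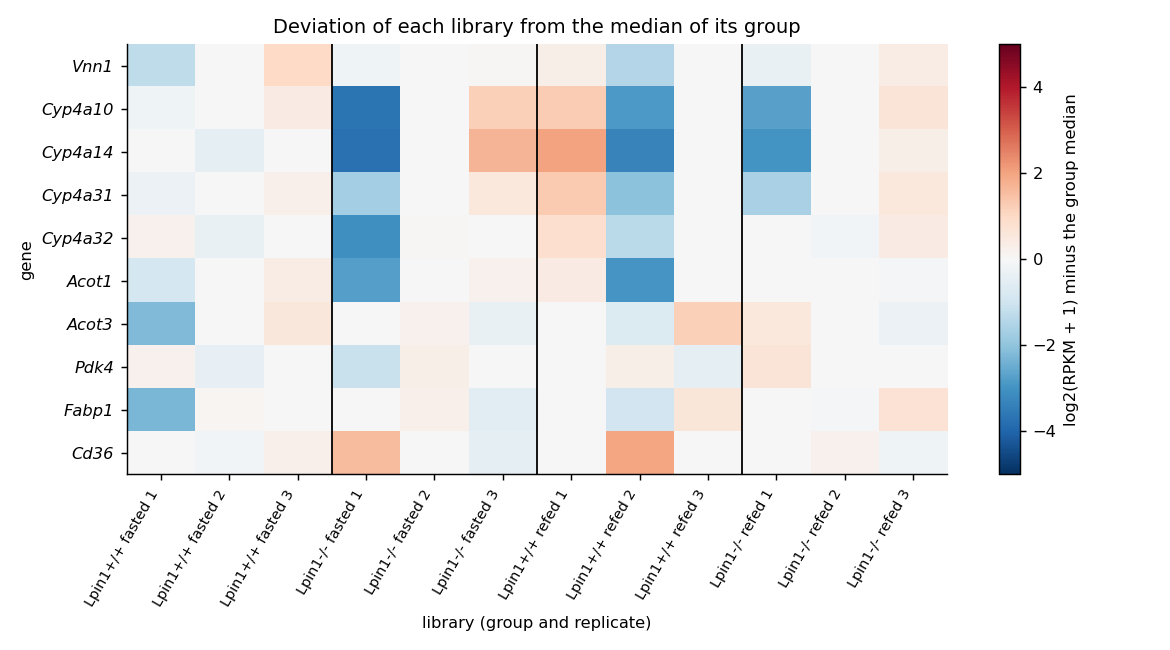
Deviation of each library from the median of its group on the log2(RPKM + 1) scale, with genes in rows and the 12 libraries in columns (group and replicate). Fasted Lpin1-/- replicate 1 and refed Lpin1+/+ replicate 2 have low Cyp4a10, Cyp4a14, Cyp4a31, Cyp4a32, and Acot1 and high Cd36, and refed Lpin1-/- replicate 1 has low Cyp4a10, Cyp4a14, and Cyp4a31.

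Among the 10 members, 8 were lowest in refed Lpin1+/+ replicate 2 and 7 in fasted Lpin1-/- replicate 1 of the 3 libraries of their group, and Cd36 was highest in both. The 4 Cyp4a genes together summed to 114 RPKM in the former (881 and 2640 RPKM in the other refed Lpin1+/+ libraries) and to 11.9 RPKM in the latter (160.0 and 323 RPKM in the other fasted Lpin1-/- libraries). Fasted Lpin1+/+ replicate 1 was the lowest of its group for 6 of the 10 members, among them Fabp1 and Acot3, and the highest for 3. Within groups, the SD on the log2 scale was 2.14 for Cyp4a14 and 1.88 for Cyp4a10, against a median of 0.324 over the 11507 genes tested. It was above the median of all genes for each of the 10 members and smallest for Pdk4 (0.485).

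The acyl-CoA thioesterases release free fatty acids from their coenzyme A esters, Acot1 in the cytosol and Acot3 in peroxisomes. Both lie on chromosome 12 of GRCm38, Acot1 from 84009490 to 84018371 and Acot3 from 84052144 to 84060402. Acot3 was at 1.59, 11.0, and 16.5 RPKM in fasted Lpin1+/+ liver and at 0.762, 1.04, and 0.380 RPKM in fasted Lpin1-/- liver. In refed liver it was at 1.36, 0.460, and 4.38 RPKM in Lpin1+/+ and at 3.17, 1.91, and 1.38 RPKM in Lpin1-/-. It was lower without overlap in fasted Lpin1-/- liver (log2 fold change −2.26, SE 0.63, limma adjusted p = 0.0292), by 13.3-fold in the means, and the groups overlapped in refed liver (0.22, SE 0.63, limma adjusted p = 0.871).

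The fasted call for Acot3 was fragile. Without fasted Lpin1+/+ replicate 2 or 3 the limma adjusted p was 0.0750 or 0.122. Without fasted Lpin1-/- replicate 1, 2, or 3 it was 0.0709, 0.0589, or 0.0797, and with no filter on low values or only the 6 fasted libraries it was 0.0650 or 0.0613. Refed minus fasted, the Acot3 difference was −1.63 on the log2 scale in Lpin1+/+ (SE 0.63, limma adjusted p = 0.272) and 0.85 in Lpin1-/- (SE 0.63, limma adjusted p = 0.358), where all 3 refed libraries lay above all 3 fasted ones. Without fasted Lpin1+/+ replicate 1, which at 1.59 RPKM lay far below the other 2 of its group, the log2 fold change in Lpin1+/+ was −2.46 (limma adjusted p = 0.0358).

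Acot1 was at 21.7, 41.2, and 54.0 RPKM in fasted Lpin1+/+, 3.98, 32.3, and 37.9 RPKM in fasted Lpin1-/-, 32.4, 2.28, and 24.3 RPKM in refed Lpin1+/+, and 27.5, 27.8, and 26.0 RPKM in refed Lpin1-/- liver. Its groups overlapped in every comparison. The genotype log2 fold change was −1.01 in fasted liver (SE 0.88, limma adjusted p = 0.459) and 1.00 in refed liver (SE 0.88, limma adjusted p = 0.540), and without both libraries that stand apart it was −0.06 and −0.05.

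Pdk4 rose in fasted Lpin1-/- liver and fell when these mice were refed. The kinase phosphorylates and inhibits the pyruvate dehydrogenase complex and so limits the entry of pyruvate into the citric acid cycle. Pdk4 (chromosome 6 of GRCm38, minus strand, 5483351 to 5496309) was at 1.98, 0.898, and 1.55 RPKM in fasted Lpin1+/+ and at 7.58, 21.6, and 17.4 RPKM in fasted Lpin1-/- liver. Refed levels of Pdk4 were 1.25, 1.75, and 0.637 RPKM in Lpin1+/+ and 3.77, 1.99, and 2.06 RPKM in Lpin1-/-. All 3 Lpin1-/- libraries lay above all 3 Lpin1+/+ libraries in each state.

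Mean Pdk4 was 10.5-fold higher in fasted Lpin1-/- than in fasted Lpin1+/+ liver (log2 fold change 2.65, SE 0.36, limma adjusted p = 9.0e-04). In refed liver the difference was 0.70 on the log2 scale (SE 0.36, limma adjusted p = 0.276). Pdk4 fell with refeeding in Lpin1-/- liver (log2 fold change −2.12, SE 0.36, limma adjusted p = 0.00302), where its mean was 5.97-fold higher in fasted than in refed liver, and gave −0.17 (SE 0.36, limma adjusted p = 0.872) in Lpin1+/+ liver. The fasted genotype call and the feeding call in Lpin1-/- held in all alternatives. The interaction, which is the difference between the feeding responses of the genotypes, was −1.95 (SE 0.51, limma adjusted p = 0.0851). It passed the threshold without fasted Lpin1-/- replicate 1 (−2.37, limma adjusted p = 0.0346).

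Fabp1, the most abundant member, fell in refed Lpin1-/- liver. It carries fatty acids through the cytosol of hepatocytes and enterocytes. Fabp1 (chromosome 6 of GRCm38, 71199827 to 71205023) was at 2586, 13392, and 12647 RPKM in fasted Lpin1+/+ liver and 2701, 3243, and 1825 RPKM in fasted Lpin1-/- liver. After refeeding Fabp1 was at 8837, 4563, and 13593 RPKM in Lpin1+/+ and 848, 813, and 1417 RPKM in Lpin1-/-. The groups did not overlap in refed liver, and in fasted liver only Lpin1+/+ replicate 1 lay in the range of the Lpin1-/- libraries.

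By genotype, Fabp1 had a log2 fold change of −3.04 in refed liver (SE 0.62, limma adjusted p = 0.0158), 8.77-fold in the means, and −1.59 in fasted liver (SE 0.62, limma adjusted p = 0.0944). The refed call was lost without refed Lpin1+/+ replicate 1 or 3 (limma adjusted p = 0.0536 or 0.0584) and without refed Lpin1-/- replicate 1 or 2 (0.0652 or 0.0646). The fasted difference passed without fasted Lpin1+/+ replicate 1 (−2.37, limma adjusted p = 0.00813). In Lpin1-/- liver all 3 refed libraries lay below all 3 fasted ones (log2 fold change −1.34, SE 0.62, limma adjusted p = 0.140). With only the 6 Lpin1-/- libraries, or without fasted Lpin1+/+ replicate 1, this passed (limma adjusted p = 0.0312 or 0.0362).

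Cd36, a receptor at the plasma membrane that takes up fatty acids and is also made by macrophages and endothelial cells, was the only member with its 2 highest values in the 2 libraries that stand apart. Cd36 (chromosome 5 of GRCm38, minus strand, 17781690 to 17888801) was at 5.59, 4.92, and 6.80 RPKM in fasted Lpin1+/+ and 33.0, 10.5, and 7.34 RPKM in fasted Lpin1-/- liver, without overlap. In refed liver it was at 5.42, 24.4, and 5.39 RPKM in Lpin1+/+ and 6.29, 7.37, and 5.25 RPKM in Lpin1-/-. The log2 fold change by genotype was 1.14 in fasted liver (SE 0.56, limma adjusted p = 0.182) and −0.48 in refed liver (SE 0.56, limma adjusted p = 0.651). Without both libraries it was 0.54 and 0.18 (limma adjusted p = 0.149 and 0.732). Both libraries also had the highest sums of the macrophage markers, and the part of macrophages in the Cd36 values was not tested.

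**Figure D3:**
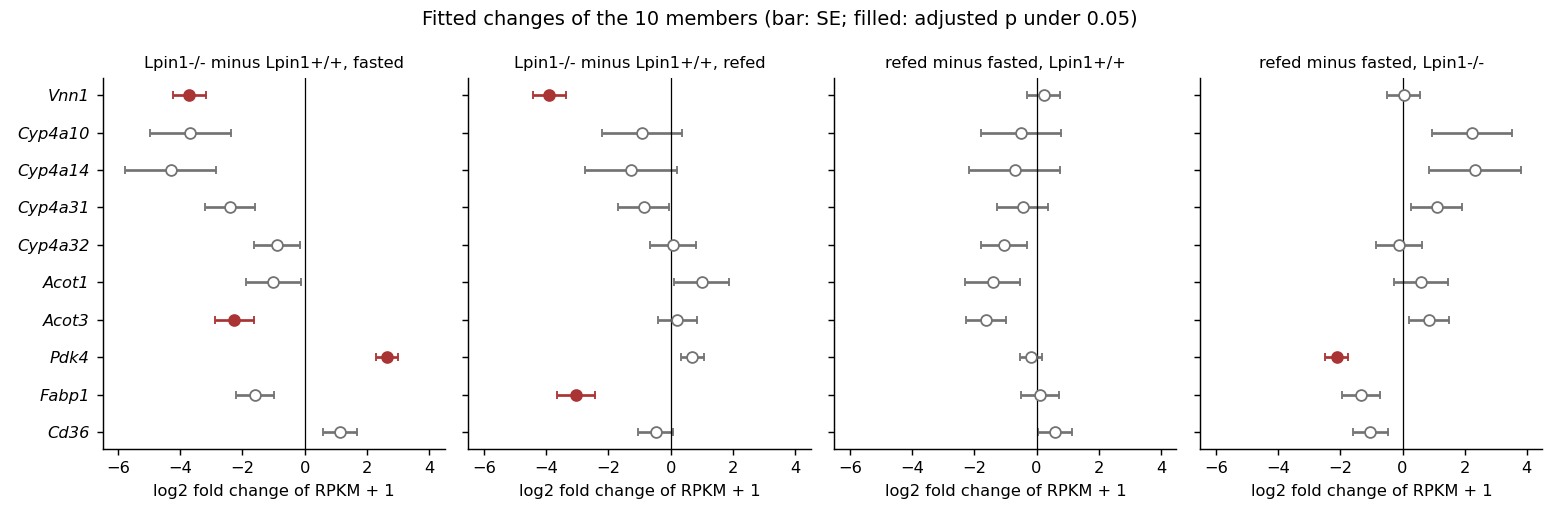
Log2 fold change of RPKM + 1 from the limma fit (x axis) for each member (y axis) in 4 comparisons, with the SE as bar and filled points where the adjusted p is under 0.05. Filled points are Vnn1, Acot3, and Pdk4 by genotype in fasted liver, Vnn1 and Fabp1 by genotype in refed liver, and Pdk4 by feeding in Lpin1-/- liver.

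Counted together, 3 of the 10 members were altered by genotype in fasted liver (Vnn1 and Acot3 lower, Pdk4 higher), where 18.8% of all genes tested were. Groups did not overlap for 7 of the 10, against 32.9% of all genes. Of the members 8 had a negative log2 fold change, and the median was −1.93 against −0.14 over all genes. Without refed Lpin1+/+ replicate 2 the count was 6. In refed liver 2 members were altered (Vnn1 and Fabp1, both lower), against 6.67% of all genes, and groups did not overlap for 3 members, against 33.9%. The median there was −0.67 against −0.07 over all genes.

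No member was altered by feeding in Lpin1+/+ liver with limma (0 of 10, with Acot3 alone at an unadjusted p under 0.05), where 1.72% of all genes were, and groups did not overlap for 0 of 10 members, against 18.1%. The median was −0.48 against 0.19 over all genes. Without fasted Lpin1+/+ replicate 1 the count was 1. In Lpin1-/- liver 1 member, Pdk4, was altered by feeding, against 20.7% of all genes, and groups did not overlap for 3 members, against 46.8%, with a median of 0.31 against 0.25 over all genes. With only the 6 Lpin1-/- libraries the count was 3, and without fasted Lpin1+/+ replicate 1 it was 2. No member passed the test of the interaction with limma (0 of 10, with Acot3 and Pdk4 at an unadjusted p under 0.05), against 1.28% of all genes. Without fasted Lpin1+/+ replicate 1 or fasted Lpin1-/- replicate 1 the count was 1. Comparisons by genotype and by feeding share libraries, so that their values for a member are not independent.

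The receptor, its partner, and its coactivator were compared because the members are their targets. Ppara, which encodes PPARalpha, was at 36.6, 11.9, and 24.5 RPKM in fasted Lpin1+/+ and 9.15, 16.0, and 9.49 RPKM in fasted Lpin1-/- liver, with overlap (log2 fold change −0.93, SE 0.41, limma adjusted p = 0.136). In refed liver its log2 fold change was −0.47 (SE 0.41, limma adjusted p = 0.532). Rxra, which encodes RXRalpha, had log2 fold changes of −0.88 in fasted and −0.62 in refed liver (SE 0.63, limma adjusted p = 0.358 and 0.601). Ppargc1a, which encodes PGC-1alpha, had log2 fold changes of 1.36 and 0.82 (SE 0.48, limma adjusted p = 0.0726 and 0.349). The fasted difference passed without fasted Lpin1+/+ replicate 2 for Ppara (−1.34, limma adjusted p = 0.0311) and without fasted Lpin1+/+ replicate 1 for Ppargc1a (1.94, limma adjusted p = 0.00994). Of 18 genes for the receptor, its partners, and coregulators, 1 rose and 2 fell in fasted Lpin1-/- liver, where 18.8% of all genes were altered. The rise was in the coactivator gene Ppargc1b (log2 fold change 1.30, limma adjusted p = 0.0200), whose call was lost without fasted Lpin1+/+ replicate 2 or 3 or fasted Lpin1-/- replicate 2 or 3 (0.0569 to 0.0827) and held in 13 of 18 alternatives. Those that fell were Rxrg and Pparg, which encode other receptors of these families (log2 fold changes −1.07 and −0.83, limma adjusted p = 0.0196 and 0.0157), and both calls were lost without fasted Lpin1+/+ replicate 3 (0.0916 and 0.0781), that of Rxrg also without fasted Lpin1-/- replicate 1 (0.0716). They held in 14 and 16 of 18 alternatives.

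A list of other PPARalpha targets outside beta-oxidation moved in both directions, as the members did. Of 33 tested genes, 8 rose and 10 fell in fasted Lpin1-/- liver (median log2 fold change −0.68), where 5.63% of all genes rose and 13.2% fell. In refed Lpin1-/- liver 4 rose and 1 fell (median −0.34), where 6.67% of all genes were altered. By feeding in Lpin1+/+ liver 0 were altered (limma, 5 at an unadjusted p under 0.05), where 1.72% of all genes were. With refeeding in Lpin1-/- liver 5 rose and 4 fell, where 17.8% of all genes rose and 2.92% fell. Fgf21, a liver hormone of the fasting response, was at 10.8, 31.0, and 43.6 RPKM in fasted Lpin1+/+ and 1.24, 0.687, and 0.323 RPKM in fasted Lpin1-/- liver (log2 fold change −3.90, SE 0.59, limma adjusted p = 0.00155). Retsat, which saturates retinol, fell as well (−3.14, SE 0.61, limma adjusted p = 0.00553). Hilpda, an inhibitor of lipolysis on lipid droplets, was at 6.66 to 14.2 RPKM in the 3 fasted Lpin1+/+ libraries and 142, 56.4, and 132 RPKM in fasted Lpin1-/- liver (3.25, SE 0.35, limma adjusted p = 3.6e-04). These 3 kept their calls in all alternatives.

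In refed Lpin1-/- liver the 3 largest differences of this list were rises in Ctsl, a lysosomal protease (log2 fold change 3.26, limma adjusted p = 0.00109), Plin4, a lipid droplet coat protein (2.52, limma adjusted p = 0.00604), and Pnpla2, the lipase that begins triglyceride breakdown (2.06, limma adjusted p = 0.00926). With refeeding in Lpin1-/- liver Hilpda and Gdf15 fell (−3.34 and −2.64, limma adjusted p = 4.4e-04 and 0.00351) and Gpd1, a glycerol 3-phosphate dehydrogenase, rose (2.49, limma adjusted p = 6.9e-04).

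Relatives of the members were compared family by family. Of 9 other acyl-CoA thioesterases 4 fell in fasted Lpin1-/- liver (13.2% of all genes fell) and none rose. Acot4, a peroxisomal enzyme, was at 10.8, 20.4, and 21.8 RPKM in fasted Lpin1+/+ and 3.76, 4.10, and 2.73 RPKM in fasted Lpin1-/- liver (log2 fold change −2.00, SE 0.30, limma adjusted p = 0.00155), and Baat, which conjugates bile acids to amino acids, fell by 1.14 on the log2 scale (limma adjusted p = 0.00551). With refeeding in Lpin1-/- liver 3 of the 9 rose (17.8% of all genes rose), with Them4 at 1.47 and Baat at 1.26 (limma adjusted p = 9.7e-04 and 0.00354). Of 9 other Cyp4 enzymes, only Cyp4v3 was altered by genotype, lower in fasted (−0.96, limma adjusted p = 0.0124) and in refed liver (−0.94, limma adjusted p = 0.0290). Of all genes, 18.8% were altered in fasted and 6.67% in refed liver. The fasted call of Cyp4v3 was lost without fasted Lpin1+/+ replicate 3 (0.0595) and held in 17 of 19 alternatives. Its refed call was lost without any of refed Lpin1+/+ replicates 2 and 3 and the 3 refed Lpin1-/- libraries (0.0669 to 0.104, limma adjusted p) and with the replicate block in the 6 refed libraries (0.0579), and it held in 13 of 20 alternatives.

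Of 12 genes for the pyruvate dehydrogenase complex and its other regulators 0 were altered by genotype in either state (limma, 1 in fasted and 5 in refed liver at an unadjusted p under 0.05). Of all genes, 18.8% were altered in fasted and 6.67% in refed liver. Of the 12 log2 fold changes, 4 were positive in fasted and 9 in refed liver. Of 11 genes for pantetheine and coenzyme A, 2 fell in fasted Lpin1-/- liver, where 13.2% of all genes fell. They were the pantothenate kinase Pank1 and the coenzyme A synthase Coasy (log2 fold changes −1.65 and −0.97, limma adjusted p = 0.0185 and 0.0171). Both calls were lost without fasted Lpin1+/+ replicate 3 or fasted Lpin1-/- replicate 1 (0.0554 to 0.0731), and that of Pank1 also without fasted Lpin1+/+ replicate 1 (0.0578), and each held in 15 of 19 alternatives. Of 9 other fatty acid binding and uptake genes, 1 rose and 1 fell in fasted Lpin1-/- liver, where 5.63% of all genes rose and 13.2% fell. The rise was in Fabp4, a binding protein of adipocytes and macrophages, at 10.3, 10.2, and 17.9 RPKM in fasted Lpin1+/+ and 96.1, 88.3, and 68.5 RPKM in fasted Lpin1-/- liver (2.65, SE 0.34, limma adjusted p = 7.1e-04). The 7 adipocyte markers, a list that includes Fabp4, summed to 71.5 to 98.3 RPKM in fasted Lpin1-/- and 13.1 to 21.4 RPKM in fasted Lpin1+/+ liver. This sum was mostly Fabp4 itself and so repeats its values. Of the other markers, Lipe was at 1.91 to 4.01 RPKM in fasted Lpin1-/- and 2.49 to 3.83 RPKM in fasted Lpin1+/+ liver. Lep was at 0 in all 12 libraries and Adipoq at most 0.243 RPKM. Of 7 PPARgamma targets of fatty liver, 2 rose in fasted Lpin1-/- liver (Fabp4 and Plin4) and 1 fell (Gpd1), where 5.63% of all genes rose and 13.2% fell. Each of these genes is also on another list given above. The calls of Fabp4 and Gpd1 held in 19 of 19 alternatives. That of Plin4 held in 11 of 18 and was lost without fasted Lpin1+/+ replicate 2 or 3 or fasted Lpin1-/- replicate 2 or 3 (limma adjusted p = 0.0660 to 0.0971).

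Among all other genes tested, those most like each member across the 12 libraries were named by Pearson correlation of log2(RPKM + 1), a description that includes the group differences. For Vnn1 they were Acat1, Dhrs4, and Fuz (0.977, 0.975, and 0.970), and for Fabp1 they were Acaa1b, Fabp2, and Dhrs4 (0.962, 0.949, and 0.946). For Cyp4a10 they were the major urinary protein genes Mup12, Mup8, and Mup7 (0.971, 0.963, and 0.958), and Mup12 was also among the 3 most like Cyp4a14 and Cyp4a31. For Cd36 they were Cbr3, Ms4a7, and Cd63 (0.991, 0.980, and 0.977), and for Pdk4 Rnf144a, Asb1, and Gm10642 (0.987, 0.979, and 0.978). Among the members themselves, Vnn1 and Fabp1 correlated at 0.89, and Cd36 correlated negatively with Acot1 (−0.87) and with Cyp4a10 (−0.82). Cd36 was highest and Acot1 lowest in the libraries that stand apart. They were at 33.0 and 3.98 RPKM in fasted Lpin1-/- replicate 1 and at 24.4 and 2.28 RPKM in refed Lpin1+/+ replicate 2. How far the correlations of Cd36 rest on these libraries was not tested.

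The promoter of Fabp1 is shown because it was the only promoter of 6 members in the RefSeq table (GRCm38.p6) that held the form searched of the direct repeat bound by PPARalpha. The repeat searched was AGGNCANAGGNCA, where N is any base, on both strands of the 250 bases before and 50 after the start. Less exact repeats and sites farther from the start were not searched. Of 32851 promoters of that length 125 held it (0.381%). The RefSeq start of Fabp1 lies downstream of the GENCODE start of the gene (71199827). In Fabp1 the repeat lay on the minus strand from 67 to 55 bases before the RefSeq start, in capitals in this stretch of the plus strand (chr6:71199769-71199868).
Fabp1: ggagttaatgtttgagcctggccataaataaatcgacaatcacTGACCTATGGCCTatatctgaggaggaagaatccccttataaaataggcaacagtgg
Promoters of Cyp4a32, Acot1, Acot3, Pdk4, and Cd36 held no such repeat. The single hexamer AGGTCA, which the repeat can include, was in those of Acot3, Cd36, and Fabp1 and in 16.3% of all promoters.

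Splicing of the members was examined in skipped exon events, for which the authors deposited counts of reads that include or skip the exon in each library. An event was tested where each of the 6 libraries had 10 or more counts, with limma, on the log2 of inclusion over skipping counts after scaling both for length. In fasted liver 23 of 86 member events were altered by genotype, against 11.3% of all events, in Cyp4a10 (12), Cyp4a32 (7), Cyp4a14 (2), Fabp1 (1), and Acot3 (1). In refed liver 5 of 103 were altered, against 0.97% of all events, in Cyp4a32 (4) and Cyp4a10 (1). Several events concern the same exon and share reads, so they are not independent. In 16 of the 23 fasted events the mean inclusion differed by less than 5 percentage points, and 10 rested on a mean of fewer than 5 counts of the rarer form. Where skipping counts are near 0, the ratio follows the inclusion counts and so the level of the gene. The 77-base exon of Cyp4a10 was called on skipping counts of 0, 0, and 0 in fasted Lpin1+/+ and 0, 1, and 0 in fasted Lpin1-/- liver. Its inclusion counts were 3927 to 6626 and 59 to 1658. Such calls cannot separate splicing from level. Leaving out 1 library gave 14 to 28 altered member events in the fasted state, while for refed livers it gave 0 whichever library was left out. Over all 65231 refed events, leaving out 1 library gave 0 to 15 altered events.

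Cyp4a32 held all 7 altered fasted events with a difference of at least 5 percentage points. A 57-base exon within an annotated intron (115608161 to 115608217) was at 4.10% to 5.04% in fasted Lpin1+/+ and 23.7% to 30.1% in fasted Lpin1-/- liver (limma adjusted p = 0.00979). Between other flanking exons it was at 17.5% to 19.7% and 48.3% to 61.6% (limma adjusted p = 0.0226). In refed liver this exon was not altered (limma adjusted p = 0.406 and 0.393). A 45-base exon (chromosome 4, 115608484 to 115608528) that lies in an annotated intron (GENCODE M21) was included at 1.19%, 0%, and 0% in fasted Lpin1+/+ and 43.6%, 43.3%, and 29.3% in fasted Lpin1-/- liver. The log2 ratio of inclusion differed by 7.50 (SE 0.86, limma adjusted p = 7.3e-04). In refed liver its inclusion was 0%, 1.85%, and 0% in Lpin1+/+ and 25.6%, 42.1%, and 27.2% in Lpin1-/- (5.81, SE 0.78, limma adjusted p = 0.0145). Mean counts of inclusion were 22.2 per library in fasted and 17.8 in refed liver. Measured between other flanking exons, with more skipping reads, the same exon was at 4.18% to 14.5% in fasted and 0.62% to 4.69% in refed Lpin1-/- liver. Cyp4a10 has an event of the same exon length, also within an annotated intron (115523089 to 115523133), with inclusion of at most 0.04% in every Lpin1+/+ library of either state, 0% to 1.90% in fasted Lpin1-/-, and 0.54% to 0.74% in refed Lpin1-/- liver, which was altered in both states (limma adjusted p = 0.00194 and 0.0145).

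**Figure D4:**
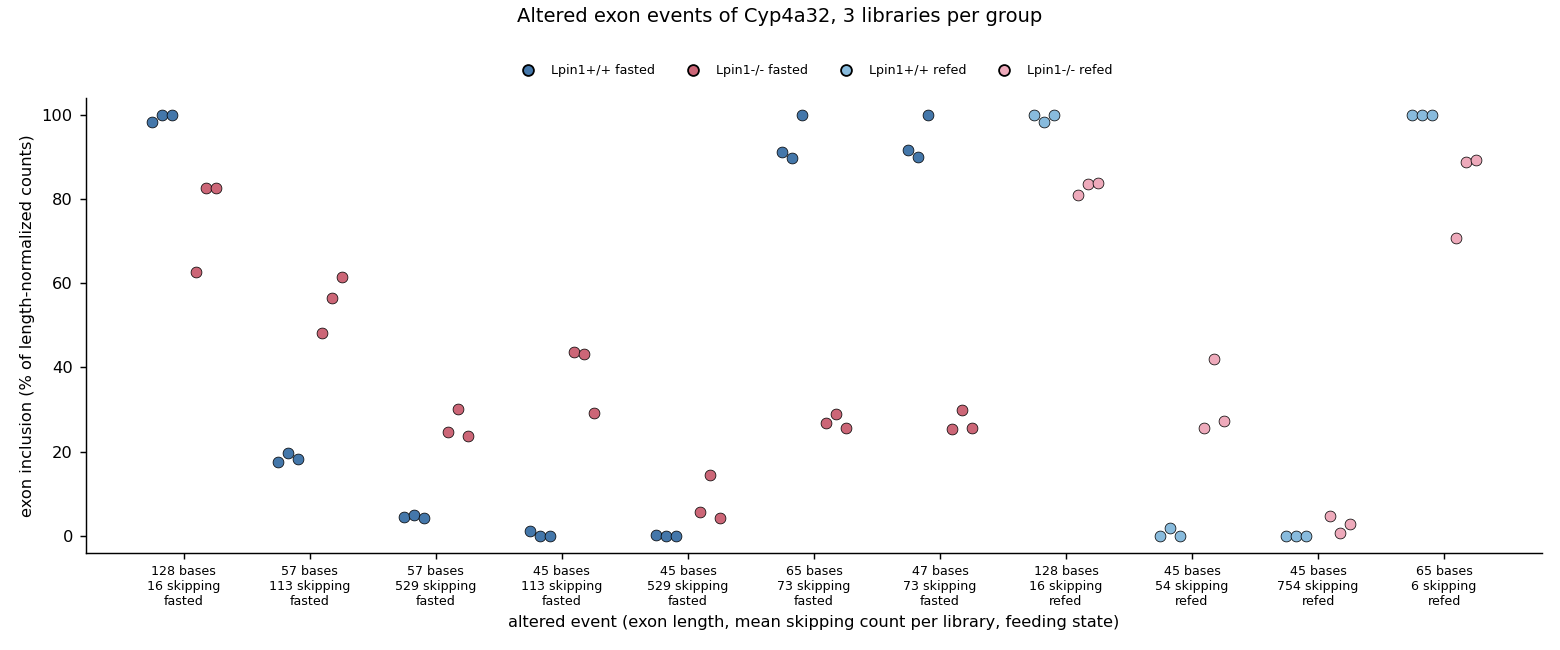
Exon inclusion in percent (y axis) for each altered event of Cyp4a32 (x axis, with the exon length, mean skipping count per library, and feeding state), 1 point per library. The 45-base exon is near 0% in Lpin1+/+ and higher in Lpin1-/- libraries in both states, and the 65-base exon is at 89.9% or more in all Lpin1+/+ libraries and lower in Lpin1-/- libraries.

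A 65-base coding exon of Cyp4a32 (chromosome 4, 115614613 to 115614677) was included at 91.1%, 89.9%, and 100% in fasted Lpin1+/+ and 26.8%, 29.0%, and 25.7% in fasted Lpin1-/- liver (log2 ratio −6.13, SE 1.05, limma adjusted p = 0.00314). In refed liver it was at 100% in each Lpin1+/+ library and 70.7%, 88.8%, and 89.4% in Lpin1-/- (−4.15, SE 0.67, limma adjusted p = 0.0237). The 128-base coding exon (115606645 to 115606772), in 1 of its events, was included at 98.3% to 100% in fasted Lpin1+/+ and 62.8% to 82.7% in fasted Lpin1-/- liver, with −5.86 as log2 ratio (SE 0.89, limma adjusted p = 0.00169). Against another flanking exon, the same 128-base exon was included at 72.4% to 75.5% and 72.8% to 81.7% (0.37, SE 0.63, limma adjusted p = 0.745). The 65-base exon is shown with those of its relatives because they are nearly the same, so that reads within the exon do not separate these genes well, with the base that differs from Cyp4a32 in capitals (GENCODE M21).
Cyp4a32: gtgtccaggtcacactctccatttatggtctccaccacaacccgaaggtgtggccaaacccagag
Cyp4a10: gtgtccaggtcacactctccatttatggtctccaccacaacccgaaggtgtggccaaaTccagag
Cyp4a31: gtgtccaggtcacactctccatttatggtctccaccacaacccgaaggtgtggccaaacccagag
The 65-base exon of Cyp4a31 is the same in every base and that of Cyp4a10 differs at 1. The 128-base exon of Cyp4a32 differs from that of Cyp4a10 at 2 bases and from that of Cyp4a31 at 6. Levels of Cyp4a10 and Cyp4a31 in fasted Lpin1-/- liver lay below all fasted Lpin1+/+ libraries without passing the test. The part of reads from these genes in the inclusion of either exon was not tested.

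Altered events of the other members were small. The 12 altered events of Cyp4a10 in fasted liver had mean inclusion that differed by −2.26 to 0.84 percentage points (Lpin1-/- minus Lpin1+/+), and the event with the most reads of the rarer form (a 154-base exon, mean skipping count 4868, mean inclusion count 44.0) was not altered (limma adjusted p = 0.617). Those of Cyp4a14 differed by less than 0.47 points. An event in an intron of Fabp1 fell from at most 0.16% to 0.00% inclusion in fasted liver (limma adjusted p = 0.00439). A 203-base exon of Acot3, with a mean of 0.333 skipping counts, was at 100% in all fasted Lpin1+/+ libraries and 92.5% to 100% in Lpin1-/- (limma adjusted p = 0.0118). In the event of Cd36 with the most skipping reads, a 54-base exon was included at 55.6% to 71.9% in fasted liver, with no difference by genotype beyond the spread (log2 ratio 0.21, SE 0.63, limma adjusted p = 0.862).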

How the data were processed

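Liver RNA-Seq libraries of 12 mice (stranded, paired reads of 69 bases) were grouped by the labels. Per the methods and labels, the authors aligned reads with HISAT2 2.0.5 to GRCm38, counted them with HTSeq 0.6.0, and deposited RPKM per gene. They also deposited rMATS inclusion and skipping counts of skipped exons, whose columns list libraries by group without replicate numbers. Tables with the authors' p-values and fold changes only were not used.

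The 11507 genes whose RPKM averaged 0.5 or more were log2-transformed after adding 1 and compared in 1 limma fit (3.58.1, R 4.3.3) of 4 groups with a trended variance. Adjusted p-values (Benjamini-Hochberg, threshold 0.05) cover all of these genes or all exon events. For events, 0.5 was added to each count. The scripts were tested on simulated data. Alternatives were another pseudocount, no filter or a higher one, rescaling by the median ratio, a replicate block, a fit of only the libraries compared, and leaving out each library.

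All members were named in every comparison. From each list up to 3 altered genes with the largest change were eligible, and a part of them was described, chosen after their values were seen. The members and lists were chosen with earlier results of these data known. The labels do not say that replicate numbers mark shared litters or days. Same-numbered libraries deviated together in the refed genotype comparison (correlations 0.162 to 0.297 for the 3 pairs). That comparison was therefore also fitted with the replicate number as a block. In the Lpin1+/+ feeding comparison the correlations were 0.251, 0.0833, and −0.016. In the fasted genotype comparison and the Lpin1-/- feeding comparison all of them were negative. Tables and plots came from matplotlib 3.10.9, pandas 2.3.3, and numpy 2.4.6 under Python 3.11.15. Positions are from GENCODE M21 on GRCm38.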

Additional observations from a re-analysis of the deposited data

Results flagged for a closer look

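No member met a criterion for a closer look. By the limma test of the interaction, 2 of 33 other PPARalpha targets passed as higher and 3 as lower. So did 2 of 9 other thioesterases, 1 of 9 other fatty acid binding and uptake genes, and 1 higher and 1 lower of 7 PPARgamma targets. Those PPARgamma targets were Gpd1 and Fabp4, which are already counted in the lists of other PPARalpha targets and of fatty acid binding genes. Of all genes tested, 1.28% passed. With up to 3 genes eligible per list, 6 are named here. The value given is the interaction, which is the log2 change with refeeding in Lpin1-/- minus that in Lpin1+/+ liver. For Hilpda it was −3.58 (adjusted p = 0.00915), and it passed in 18 of 18 alternatives. For Gdf15 it was −3.09 (adjusted p = 0.0460), and it passed in 5 of 18 alternatives. For Gpd1 it was 2.29 (adjusted p = 0.0316), and it passed in 8 of 18 alternatives. For Baat it was 1.62 (adjusted p = 0.0334), and it passed in 6 of 18 alternatives. For Them4 it was 1.30 (adjusted p = 0.0491), and it passed in 3 of 18 alternatives. For Fabp4 it was −2.26 (adjusted p = 0.0460), and it passed in 5 of 18 alternatives.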

How the results depend on the processing

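The number of members altered by genotype in fasted liver was 2 to 6 with each library left out in turn, and in refed liver 1 to 2. The feeding comparison gave 0 to 1 for Lpin1+/+, 1 to 2 for Lpin1-/- liver, and the interaction 0 to 1. With only the 6 libraries compared it was 3 by feeding in Lpin1-/- liver, without fasted Lpin1-/- replicate 1 and refed Lpin1+/+ replicate 2 together it was 2 (an alternative chosen after seeing the data), and after rescaling by the median ratio it was 1 for the interaction. Member exon events altered in refed liver numbered 11 with 1 added to each count, and leaving out each library gave 14 to 28 in fasted and 0 in refed liver. The causes were not tested.

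Some differences that passed no test changed sign. Without both libraries that stand apart the genotype log2 fold change was 0.15 for Cyp4a32 in fasted liver, and in refed liver −0.51 for Cyp4a32, −0.051 for Acot1, −0.21 for Acot3, and 0.18 for Cd36. By feeding in Lpin1+/+ it was 0.65 for Cyp4a10, 0.75 for Cyp4a14, 0.45 for Cyp4a31, and −0.071 for Cd36, in Lpin1-/- −0.045 for Vnn1 and −0.36 for Acot1, and for the interaction −0.016 for Cyp4a31 and −0.66 for Cyp4a32. After rescaling, feeding gave −0.003 for Vnn1 and −0.13 for Fabp1 in Lpin1+/+ and −0.062 for Vnn1 in Lpin1-/-, and a pseudocount of 0.1 gave −0.0018 for Vnn1 in Lpin1-/-.

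With each library left out in turn, genotype differences ranged from −1.40 to 0.15 for Cyp4a32 in fasted liver, and in refed liver from −2.08 to 0.093 for Cyp4a10, −0.51 to 0.58 for Cyp4a32, −0.051 to 1.62 for Acot1, −0.21 to 0.73 for Acot3, and −0.82 to 0.18 for Cd36. Feeding differences in Lpin1+/+ ranged from −0.36 to 0.78 for Vnn1, −1.41 to 0.65 for Cyp4a10, −1.93 to 0.75 for Cyp4a14, −1.22 to 0.45 for Cyp4a31, −0.35 to 0.031 for Pdk4, −0.67 to 0.53 for Fabp1, −0.071 to 0.93 for Cd36, and −1.42 to 0.45 for Lpin1. In Lpin1-/- they ranged from −0.15 to 0.22 for Vnn1, −1.13 to 0.42 for Cyp4a32, and −0.36 to 1.12 for Acot1, and interactions from −0.74 to 0.40 for Vnn1, −0.072 to 1.48 for Cyp4a32, and −0.50 to 1.37 for Lpin1.

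Over 18 pairs of same-numbered libraries the correlation of their deviations ranged from −0.474 to 0.743, and 8 were over 0.1. All 3 pairs were over 0.1 between refed Lpin1+/+ and Lpin1-/- liver, each best with its own number, and between fasted Lpin1+/+ and refed Lpin1-/- liver, which were not compared. With the replicate number as a block the counts of altered members were 3 and 2 by genotype, 0 and 1 by feeding, and 0 for the interaction, as without it, and Lpin1 by genotype in fasted liver passed with it (limma adjusted p = 0.0493 against 0.0562 without). In a block fit of the 6 refed libraries, chosen after seeing the data, Vnn1 and Fabp1 kept their calls (limma adjusted p = 0.0214 and 0.0233), no other member passed, and Lpin1 passed (0.0478). Each group held 3 mice, and whether spread between mice or depth limited these comparisons more was not tested.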
